A study of Mus musculus with 10 samples.

Results

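The epidermal kallikreins are a group of secreted serine proteases, and the mouse genes Klk5 to Klk14 were followed here in inflamed ear skin. The Ensembl identifiers of the deposited count files were matched to mouse symbols, which gave 10 kallikreins among 41388 genes. RNA of whole ear skin was sequenced from 6 Experimental and 4 Littermate C57Bl/6 mice, with 1 library per sample. The Experimental genotype is given as NaV1.8+ Jak1F/F on the samples and as NaV1.8+ Il4raF/F in the series text, and which gene was floxed is not settled here. NaV1.8 is a sodium channel of sensory neurons, whose cell bodies lie outside the ear. In which cells the deletion took place was not tested here. The Littermate genotype is given as WT. Per the series text both groups were painted with MC903, that is calipotriol, an analogue of vitamin D used to provoke an itching dermatitis, at 1 nM daily for 12 days, so no untreated skin was part of the comparison. The sources used here give no age, sex, litter or batch, and p-values measure the spread between these samples.

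Kallikreins are made by the uppermost living keratinocytes, those of the granular layer, and are released as inactive precursors into the space between the cells. Once activated, in part by each other, they cut the desmosomal proteins that hold corneocytes together, so that the skin surface can be shed. The inhibitor LEKTI, encoded by Spink5, restrains them, and its loss in humans causes Netherton syndrome, in which unrestrained kallikrein activity breaks the barrier. Klk5 and Klk7 are also known to process the antimicrobial peptide cathelicidin, and Klk5 can activate the receptor PAR2 on keratinocytes.

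Total counts lay between 11520348 and 41935183 in the Experimental libraries and between 12865459 and 14324433 in the Littermate libraries, and the deepest were Experimental 2 and 3. Markers of basal keratinocytes summed to between 17460 and 23720 normalized CPM (counts relative to the library total, scaled by TMM factors) in Experimental libraries and between 20470 and 23270 in Littermate libraries, so keratinocyte RNA was plentiful in every library, as the label of skin implies. Markers of skeletal muscle and cartilage were counted as well. Neither candidate gene passed the test in whole skin: the log2 fold change was -0.20 for Il4ra (edgeR, adjusted p = 0.678) and -0.06 for Jak1 (edgeR, adjusted p = 0.815). Scn10a, the gene of NaV1.8, had 2 counts in all. The number of genes called was sensitive to 2 libraries: 3 of 16830 tested genes passed with all 10 libraries, and 563 of 16857 passed without Littermate 2 and Experimental 6.

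The 10 genes lie in a row on the plus strand of chromosome 7 (mm10), from the start of Klk14 at 43690418 to the end of Klk5 at 43851181. The order along the strand is Klk14, Klk13, Klk12, Klk11, Klk10, Klk9, Klk8, Klk7, Klk6 and Klk5, with Klk4 beyond. The gaps between neighbours ran from 0.821 kb, between Klk9 and Klk8, to 42.1 kb, between Klk13 and Klk12. High levels began and ended sharply in this row. Klk13, the second gene, averaged 126 RPKM over the 10 libraries (normalized CPM per kilobase of gene length), whereas its upstream neighbour Klk14 averaged 0.218 RPKM. At the other end Klk5 averaged 74.1 RPKM, and Klk4, a protease of tooth enamel, had 15 counts in all. The genes upstream of Klk14 were also low, with 4.76 RPKM for Ctu1 and 1.37 RPKM for Siglece. None of the other 16 kallikrein genes of the locus that were counted, Klk1, Klk4, Klk15 and the Klk1b genes, passed the filter on low counts, and 6 of them, Klk15, Klk1b3, Klk1b4, Klk1b8, Klk1b16 and Klk1b22, had no count in any library.

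**Figure D1:**
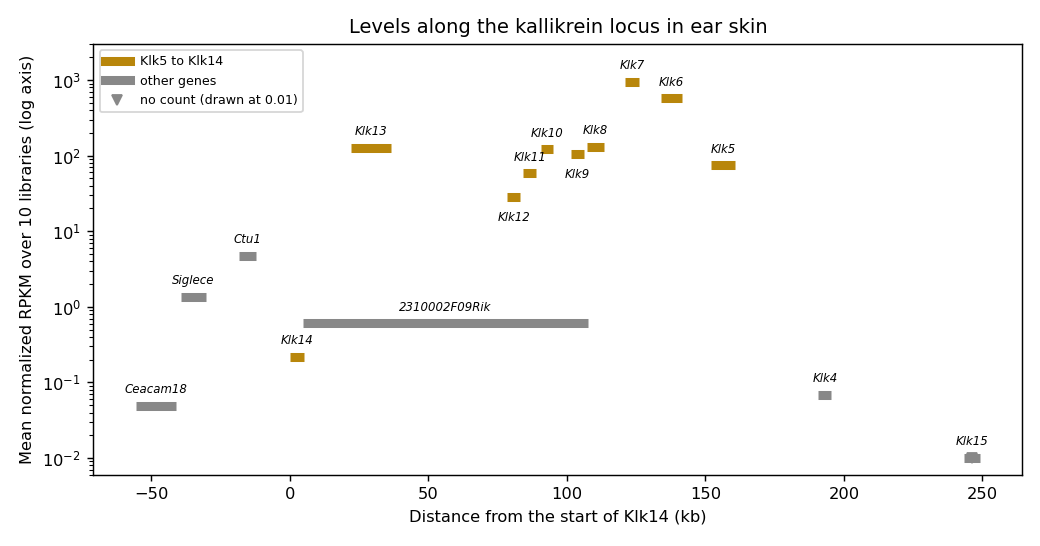
Mean normalized RPKM over 10 libraries (log axis) against distance from the start of Klk14 in kb, with each bar spanning a gene and a triangle marking a gene with no count. The 9 high kallikreins, from Klk13 to Klk5, lie between 28.0 and 952 RPKM, while Klk14 and Klk4 at the edges lie below 1.

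Within the row, levels per length differed widely. Klk7, the chymotrypsin-like enzyme of the stratum corneum, led with a mean of 952 RPKM, which was rank 32 of the 16830 tested genes. Klk6, a trypsin-like protease also known from the central nervous system, followed with 573.5 RPKM and rank 47. These neighbours together made up 69.4% to 73.3% of the summed RPKM of the 10 kallikreins in Experimental libraries and 65.9% to 70.7% in Littermate libraries. Klk7 alone held 44.7% ± 0.524 (SD, n = 6) in Experimental and 42.4% ± 2.89 (SD, n = 4) in Littermate libraries.

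A middle tier was formed by Klk8 (neuropsin, studied in hippocampus and epidermis) at 131 RPKM, Klk13 at 126 RPKM, Klk10 at 121 RPKM and Klk9 at 105 RPKM. Below it stood Klk5 at 74.1 RPKM, Klk11 at 58.5 RPKM and Klk12 at 28.0 RPKM. Klk5, which activates the precursor of Klk7, was thus counted at a far lower level per length than Klk7. Klk7 exceeded Klk6, Klk6 exceeded Klk8, Klk9 exceeded Klk5, Klk5 exceeded Klk11 and Klk11 exceeded Klk12 in 10 of 10 libraries. The order inside the middle tier was less fixed, since Klk8 exceeded Klk13 in 7 libraries, Klk13 exceeded Klk10 in 8 and Klk10 exceeded Klk9 in 9. The 3 libraries in which Klk13 was above Klk8 were all Littermates. The deposited length of Klk13 was 1033 bases, while its longest annotated transcript has 1809, so its level per length is uncertain.

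Sequences before the transcription starts were compared because neighbours with very different levels lie so close together. All 10 genes were found in the RefSeq promoter table (GRCm38.p6), and 5 stretches of 150 bases are shown: Klk7 and Klk6 as the highest genes, Klk5 as the gene that varied apart from the rest, Klk11 as the gene with the lowest p between the groups, and Klk14 as the nearly silent edge. Each ends at the base before the earlier of the RefSeq and deposited starts. Capitals mark CACCC, or GGGTG for the opposite strand, which are letters bound by KLF factors such as Klf4. They also mark AGTTCA, a hexamer of vitamin D receptor elements, which vary in sequence.
Klk7 (chr7:43811144-43811293, plus strand): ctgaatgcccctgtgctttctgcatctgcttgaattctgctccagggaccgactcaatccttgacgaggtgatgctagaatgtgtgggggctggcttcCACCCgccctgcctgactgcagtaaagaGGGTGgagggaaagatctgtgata
Klk6 (chr7:43824349-43824498, plus strand): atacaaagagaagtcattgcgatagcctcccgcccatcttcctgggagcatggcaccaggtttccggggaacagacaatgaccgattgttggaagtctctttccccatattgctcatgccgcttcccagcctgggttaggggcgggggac
Klk5 (chr7:43842119-43842268, plus strand): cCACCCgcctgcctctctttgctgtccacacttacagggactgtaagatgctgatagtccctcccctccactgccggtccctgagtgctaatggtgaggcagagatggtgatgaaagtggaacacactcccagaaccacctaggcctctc
Klk11 (chr7:43774467-43774616, plus strand): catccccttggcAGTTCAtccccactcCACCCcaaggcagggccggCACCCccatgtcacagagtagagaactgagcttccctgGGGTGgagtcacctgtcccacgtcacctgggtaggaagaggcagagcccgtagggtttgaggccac
Klk14 (chr7:43690268-43690417, plus strand): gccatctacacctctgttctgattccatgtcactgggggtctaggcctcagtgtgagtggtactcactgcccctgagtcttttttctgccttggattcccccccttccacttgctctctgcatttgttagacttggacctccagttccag

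CACCC or its complement lay within 250 bases upstream of the RefSeq start in 9 of 10 kallikreins, against 52.0% of 32851 mouse promoters in the table. Klk8 was without a match. The matches of Klk6 and Klk14 fall outside the stretches printed, at 15 and 166 bases before the RefSeq start. Klk11 held the most in its printed stretch, with 3, and the printed stretch of Klk7 held 2. AGTTCA was found in Klk11 and Klk13, against 11.8% of all promoters. The GC box GGGCGG was found in Klk6, Klk7 and Klk8, against 32.7%, and in Klk7 its match on the opposite strand overlaps the first CACCC. The GATA-factor motif AGATAA was found in Klk5 and Klk12, against 3281 of the 32851 promoters. No kallikrein promoter held TATAAA (12.4% of all promoters), the nuclear receptor hexamer AGGTCA (14.0%) or the AP-1 motif TGANTCA (6.7%). Both strands were searched for every motif. The GC content of the 10 upstream regions ran from 52.4% to 65.2%, with a median of 52.4% over all promoters, and the motif counts were not adjusted for it.

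The comparison of groups asked whether kallikrein RNA differed in MC903-treated skin of the conditional mice. None of the 9 kallikreins that passed the filter on low counts was called at an adjusted p of 0.05, where 0.0178% of all tested genes were called (edgeR). Of the 9, 7 had a positive and 2 a negative log2 fold change, and the median was 0.107, beside -0.0013 over all tested genes, of which 49.6% were positive. At an unadjusted p under 0.05 there were 2 kallikreins, Klk7 and Klk11, both higher in Experimental skin, where 3.65% of all genes were higher at that threshold and 8.1% lower. None of the kallikreins was lower at it. No kallikrein had groups that did not overlap, against 2.12% of tested genes. In whole skin a change in the number of granular cells and a change of RNA per cell cannot be told apart.

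**Figure D2:**
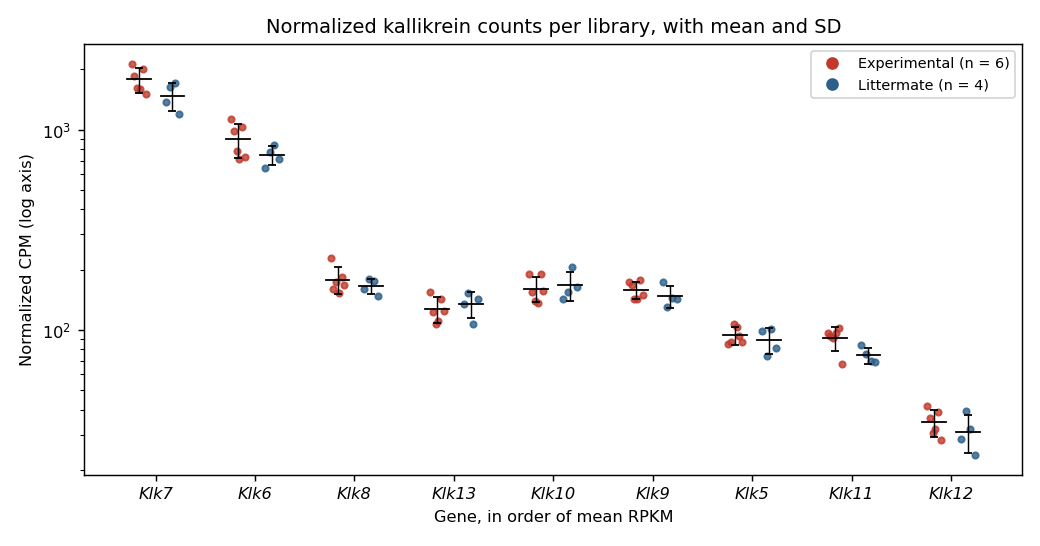
Normalized CPM (log axis) of the 9 tested kallikreins, with 1 point per library, Experimental (n = 6) left of Littermate (n = 4) and bars for the mean ± SD. The groups overlap for every gene, and for Klk11 5 of the 6 Experimental points lie above all Littermate points.

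Among the proteases of shedding, Klk7 stood at 1514, 1731 and 2139 normalized CPM (lowest, median and highest) in the Experimental libraries. The Littermate libraries had 1369, 1641, 1703 and 1196 normalized CPM. The highest values were thus Experimental and the lowest pair Littermate, with overlap between 1514 and 1703. The log2 fold change was 0.27 with an SE of 0.13 and a 95% interval from 0.00348 to 0.54 (edgeR, adjusted p = 0.419).

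Klk5, which in human skin activates the precursors of KLK7 and KLK14, had 84.7, 90.2 and 107 normalized CPM (lowest, median and highest) in Experimental libraries. Littermates had 99.05, 73.8, 100.7 and 81.4. The ranges overlapped, with 2 Experimental libraries above and 2 Littermate libraries below it. The interval of its log2 fold change, from -0.13 to 0.29 around 0.08, leaves out changes beyond 1.23-fold upward (edgeR, adjusted p = 0.795).

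Klk14, a trypsin-like protease that in human skin can activate the precursor of KLK5, was close to undetected. It had 4, 11, 16, 0, 0 and 14 counts in Experimental 1 to 6 and 4, 5, 3 and 2 counts in Littermates 1 to 4. The zeros, in Experimental 4 and 5, allow up to 0.250 and 0.260 CPM (3 counts, counting error only). Klk14 failed the filter and was not part of the main edgeR test. The antisense gene 2310002F09Rik shares 287 exonic bases with it (22.6% of its length), and 4.5% of its 50-base windows also occur in other genes, so even these few counts are uncertain.

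Klk6 followed Klk7. It had 715, 884 and 1127 normalized CPM (lowest, median and highest) in Experimental libraries and 647, 773, 837 and 718 in Littermates. Experimental 1, 2 and 5 lay above all Littermates, for Klk6 as for Klk7. The log2 fold change of Klk6 was 0.27 (SE 0.13; edgeR, adjusted p = 0.464).

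Klk11, also called hippostasin, a trypsin-like protease, had the lowest p of the group. It stood at 67.5, 94.5 and 101.9 normalized CPM (lowest, median and highest) in Experimental libraries and at 84.0, 75.7, 70.0 and 69.3 in Littermates. Of the Experimental libraries 5 lay above every Littermate, and Experimental 6 lay below every Littermate. Its log2 fold change was 0.28 with an SE of 0.10 and an interval from 0.06 to 0.50 (edgeR, adjusted p = 0.302). Without Experimental 6 it was 0.36 (edgeR, adjusted p = 0.0658), and without Experimental 6 and Littermate 2 it was 0.37 and passed (edgeR, adjusted p = 0.0271), in a fit where 3.34% of all genes were called. No label marks either library as faulty, the pair was taken from earlier work on these data, and Experimental 6 is the Experimental library whose Klk11 value lay below all Littermates. Klk11 was called only with both left out.

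The other 5 tested kallikreins also failed the test. Klk12, a trypsin-like protease, averaged 34.6 ± 5.27 normalized CPM in Experimental libraries (SD, n = 6) and 31.0 ± 6.69 in Littermates (SD, n = 4), a log2 fold change of 0.16. Klk9 averaged 158.9 ± 15.6 and Klk8 177.9 ± 27.5 in Experimental libraries, beside 147.6 ± 18.2 and 165.8 ± 14.4 in Littermates, with log2 fold changes of 0.11 and 0.10. Exons of Klk8 overlap those of the antisense gene over 369 bases (27.9% of its length). 2310002F09Rik had 13 to 82 counts per library and Klk8 1882 to 7237. How reads in the shared bases were assigned was not examined, so the level of Klk8 per length is uncertain. Klk10 and Klk13 were the only kallikreins with a negative sign in the fit of all 10 libraries, at -0.06 and -0.08, and the sign of Klk10 turned to 0.07 without Littermate 3. Klk10 had 136.5, 155 and 190 normalized CPM (lowest, median and highest) in Experimental libraries and 143, 155, 207 and 164 in Littermates. The adjusted p of these 5 ran from 0.690 to 0.897 (edgeR).

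Taking all 10 genes as a sum, the kallikreins had 3025 to 4235 normalized CPM in Experimental libraries and 2687 to 3376 in Littermate libraries.

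The kallikreins were then compared for how they varied between mice of the same group. For each pair of the 9 tested genes, Pearson's r was computed over the 10 libraries on log2 CPM with the group means subtracted, with exact permutation of libraries within groups (17280 arrangements) and adjustment over 36 pairs. Of the 36 pairs 29 were positive, with a median r of 0.37, whereas the median r of each kallikrein with all tested genes lay between -0.01 and 0.02. The values with all tested genes were widely spread: their 95th percentile lay between 0.56 (Klk8) and 0.70 (Klk12), above the median of the pairs. At an unadjusted p under 0.05 there were 8 pairs, and none had an adjusted p under 0.05.

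The closest pair was Klk12 and Klk7, which differ widely in level and are 42.5 kb apart. Their r was 0.93 (exact permutation, p = 0.00145, adjusted p = 0.0521) and their Spearman's rho 0.87 (exact permutation, p = 0.00752, adjusted p = 0.0758). Without the 2 libraries farthest from the median r was 0.85. The neighbours Klk7 and Klk6 had an r of 0.86 (exact permutation, p = 0.0048, adjusted p = 0.0526) and a rho of 0.83 (exact permutation, p = 0.00613, adjusted p = 0.0758), and r was 0.97 without the 2 farthest libraries.

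Position in the row gave no visible order to these values. The 8 adjacent pairs had a median r of 0.39, ranging from -0.38 for Klk6 and Klk5 to 0.86 for Klk7 and Klk6. The other 28 pairs had a median of 0.36, and ranged from -0.78 for Klk13 and Klk5 to 0.93. The distances between starts were 5.69 to 56.3 kb for adjacent pairs and 12.2 to 130 kb for the others.

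Klk5 varied apart from the rest. Its 8 pairs had a median r of -0.24 with 6 negative, while the 28 pairs without Klk5 had a median of 0.44 with 27 positive. The lowest was Klk13 and Klk5 at -0.78 (exact permutation, p = 0.0123, adjusted p = 0.0736), with a rho of -0.79 (exact permutation, p = 0.00874, adjusted p = 0.0758) and an r of -0.61 without the 2 farthest libraries. Klk5 was singled out after its values were seen, and its difference from the other genes was not tested.

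The groups taken alone gave different pictures. Among the 6 Experimental libraries alone, an alternative added after seeing the data, the median r over 36 pairs was 0.75. All 28 pairs without Klk5 were positive there, with a median of 0.81, and 7 of the 8 pairs with Klk5 were negative, with a median of -0.56. In the 4 Littermate libraries, too few for single values of r to be given, 17 of the 36 pairs were negative and 19 positive, and 25 of 36 had a lower r than in the Experimental libraries. The difference between the groups was not tested. Of the 36 Experimental pairs 15 had an exact permutation p under 0.05 and none after adjustment. Experimental 5 was among the highest 2 Experimental libraries for 8 of 9 kallikreins and Experimental 1 for 7 of 9, while Experimental 1 was the lowest for Klk5. Without Experimental 1 the median r over all libraries was 0.25, and without Experimental 5 it was 0.27. Experimental 5 had the lowest total count of all 10 libraries, 11520348, and Experimental 1 had 17847542; the part of depth in these values was not tested.

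**Figure D3:**
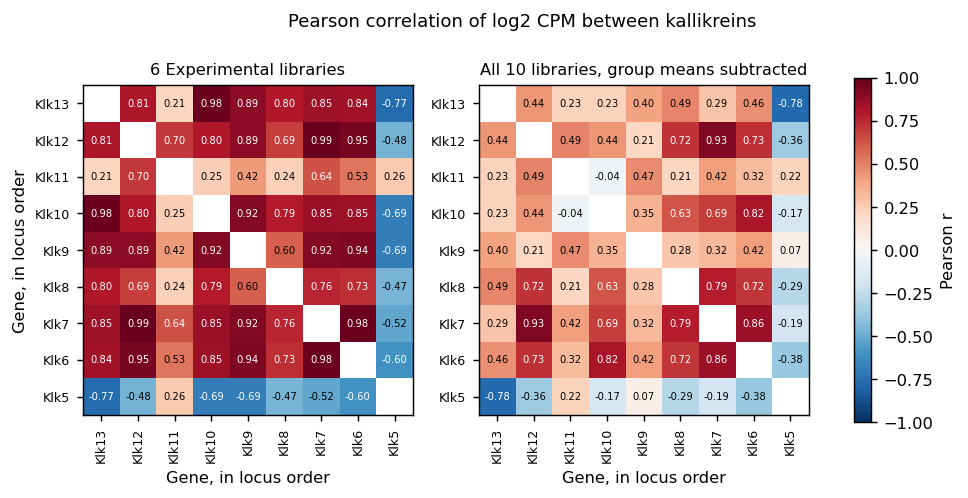
Pearson's r of log2 CPM for each pair of the 9 tested kallikreins in locus order, on the left over the 6 Experimental libraries and on the right over all 10 libraries with group means subtracted (red positive, blue negative). Both panels are mostly red, with medians of 0.75 and 0.37, except for the row and column of Klk5.

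The inhibitors were taken next. Of 11 listed inhibitors 9 were tested and none was called, with a median log2 fold change of 0.08. Spink5, which encodes LEKTI, stood at 1431, 1827 and 2156 normalized CPM (lowest, median and highest) in Experimental libraries and at 1449, 1439, 1550 and 1419 in Littermates. The Littermates were closely grouped, and 4 of 6 Experimental libraries lay above all of them. The log2 fold change was 0.29, with 0.11 as its SE (edgeR, adjusted p = 0.329). For Spink12, a related Kazal-type inhibitor gene, the log2 fold change was -0.65 (edgeR, adjusted p = 0.399), and it was -0.291 without Littermate 4, the highest Littermate, and -0.115 with the level of Y-linked genes as a covariate. Serpina12 (vaspin, an inhibitor of KLK7 in human) had 0.23 (edgeR, adjusted p = 0.476).

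RNA of protease and inhibitor was compared as the log2 ratio of counts to Spink5, tested by exact permutation over 210 splits and adjusted over 3 ratios. Protein and enzyme activity were not measured, so the ratio does not give the balance of active protease and inhibitor. For Klk7 it was -0.00480 ± 0.099 (SD, n = 6) in Experimental and -0.000848 ± 0.20 (SD, n = 4) in Littermate libraries, a difference of -0.00395 (exact permutation, two-sided p = 0.986). In reads not corrected for length, the libraries held 0.877 to 1.06 Klk7 reads per Spink5 read in the Experimental and 0.843 to 1.14 in the Littermate group. For Klk5 the log2 ratio was -4.25 ± 0.30 (SD, n = 6) in Experimental and -4.06 ± 0.19 (SD, n = 4) in Littermate libraries, with an exact permutation p of 0.295 and an adjusted p of 0.536. The ratio of Klk14 to Spink5, -13.2 ± 1.83 (SD, n = 6) in Experimental and -12.3 ± 0.49 (SD, n = 4) in Littermate libraries, rests on 0 to 16 counts of Klk14 (exact permutation, adjusted p = 0.536). In Experimental 4 and 5, at -15.2 and -15.5, only the pseudocount stands for Klk14. With a pseudocount of 5 the difference between the groups was -0.541 instead of -0.882. Mean Klk14 was 0.286 normalized CPM in Experimental and 0.262 in Littermate libraries.

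Spink5 varied with Klk6 and Klk7 within the groups. Over 10 libraries, group means subtracted, its r was 0.86 with Klk6 (exact permutation, p = 0.00394, adjusted p = 0.0219; rho 0.85, p = 0.00891, adjusted p = 0.0401) and 0.74 with Klk7 (exact permutation, p = 0.00486, adjusted p = 0.0219; rho 0.84, p = 0.0044, adjusted p = 0.0396). Without the 2 farthest libraries r was 0.67 with Klk6 and 0.74 with Klk7. Over all tested genes and 10 libraries, the 95th percentile of r was 0.61 with Klk6 and 0.67 with Klk7. These were 9 relations, chosen after other values had been seen, and the other 7 did not pass the adjustment. Klk5 had an r of -0.05 with Spink5 (exact permutation, p = 0.871).

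**Figure D4:**
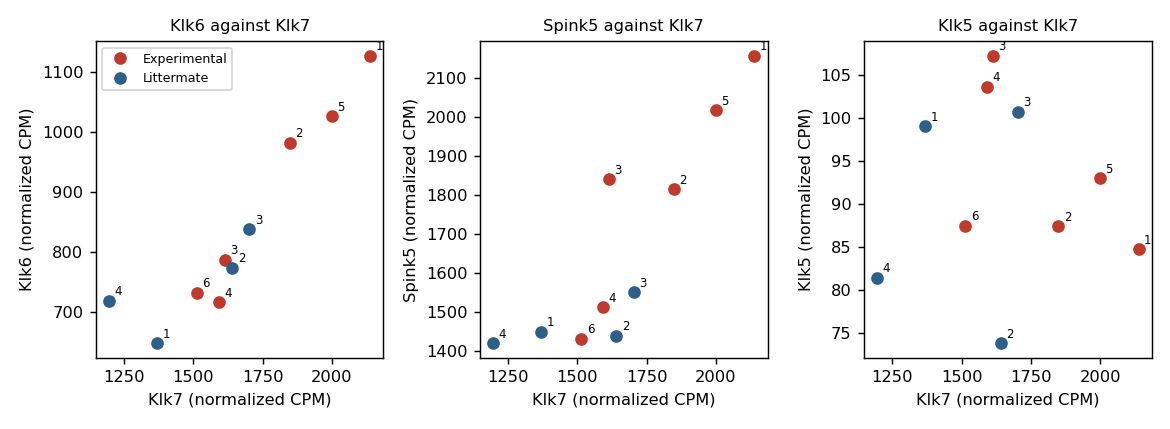
Normalized CPM of Klk6, Spink5 and Klk5 against normalized CPM of Klk7, with 1 numbered point per library (Experimental red, Littermate blue). Klk6 and Spink5 are highest in Experimental 1 and 5, where Klk7 reached 2139 and 2000 CPM, while Klk5 is at 84.7 and 93.0 CPM in these libraries.

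By a fixed rule the 8 genes most like the kallikreins were those with the highest mean r to the 9 tested members over the 10 libraries. They were Tmem150b, Trappc13, Pomgnt1, Mctp2, H2-DMa, Lipg, Atf5 and Mettl16, with mean r from 0.57 to 0.60. Trappc13, a subunit of a vesicle tethering complex, had a mean r of 0.59 and an r of 0.90 with Klk7. Lipg, endothelial lipase, had 0.57 and 0.90. The lowest r of the 8 genes with any kallikrein ran from -0.43 for Lipg to 0.04 for Tmem150b. The mean r of Spink5 was 0.55. The median over all 16830 tested genes was 0.00439, which the 8 genes exceed by the rule that chose them. None of the 8 was called between the groups (edgeR, adjusted p from 0.253 to 0.996).

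Proteases that can act upstream of kallikreins were measured beside them. Of 10 listed activating proteases 7 were tested, none was called, and the median log2 fold change was 0.15. Prss8 (prostasin) averaged 104.8 ± 10.8 normalized CPM in Experimental libraries (SD, n = 6), and its log2 fold change was 0.22 (edgeR, adjusted p = 0.386). St14 (matriptase), which can activate pro-kallikreins in Spink5-deficient mice, had 78.7, 81.9 and 86.8 normalized CPM (lowest, median and highest) in Experimental libraries and 85.6, 82.5, 101.9 and 102.8 in Littermates. Its log2 fold change was -0.18 (edgeR, adjusted p = 0.354), opposite in sign to those of Prss8 and Tmprss13 (0.18; edgeR, adjusted p = 0.421). Mep1b, a meprin subunit, had no count.

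RNA of the proteins that kallikreins cut was measured as well. Of 10 substrates and targets in the files 9 were tested and none was called, with a median of 0.08. Dsc1 (desmocollin 1) averaged 1530 ± 118.7 normalized CPM in Experimental libraries (SD, n = 6). Its log2 fold change was 0.14 (edgeR, adjusted p = 0.576). Dsg1b, a desmoglein 1 gene, averaged 719.8 ± 27.2 and had 0.15 (edgeR, adjusted p = 0.47), but its reads may be shared with the near copies Dsg1a and Dsg1c. Dsg1c was far lower, at 11.4 ± 3.80 normalized CPM in Experimental (SD, n = 6) and 8.45 ± 3.41 in Littermate libraries (SD, n = 4). Its log2 fold change of 0.43 was the largest of the list and had an interval from -0.21 to 1.08 (edgeR, adjusted p = 0.60), and it ran from 0.289 to 0.713 with single libraries left out. Camp, the gene of the cathelicidin that kallikreins process, was counted 30 times in all and failed the filter.

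Among 8 proteases of filaggrin processing, all tested, none was called and the median was 0.20. Ctsh (cathepsin H) had 200.1, 215.6 and 254.7 normalized CPM (lowest, median and highest) in Experimental libraries and 182.4, 201.2, 175.9 and 171.7 in Littermates, so that 5 of 6 Experimental libraries lay above all Littermates. Its log2 fold change was 0.27 with an SE of 0.08 (edgeR, adjusted p = 0.20). Blmh, the bleomycin hydrolase that breaks filaggrin down to amino acids, had 0.31 (edgeR, adjusted p = 0.337).

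**Figure D5:**
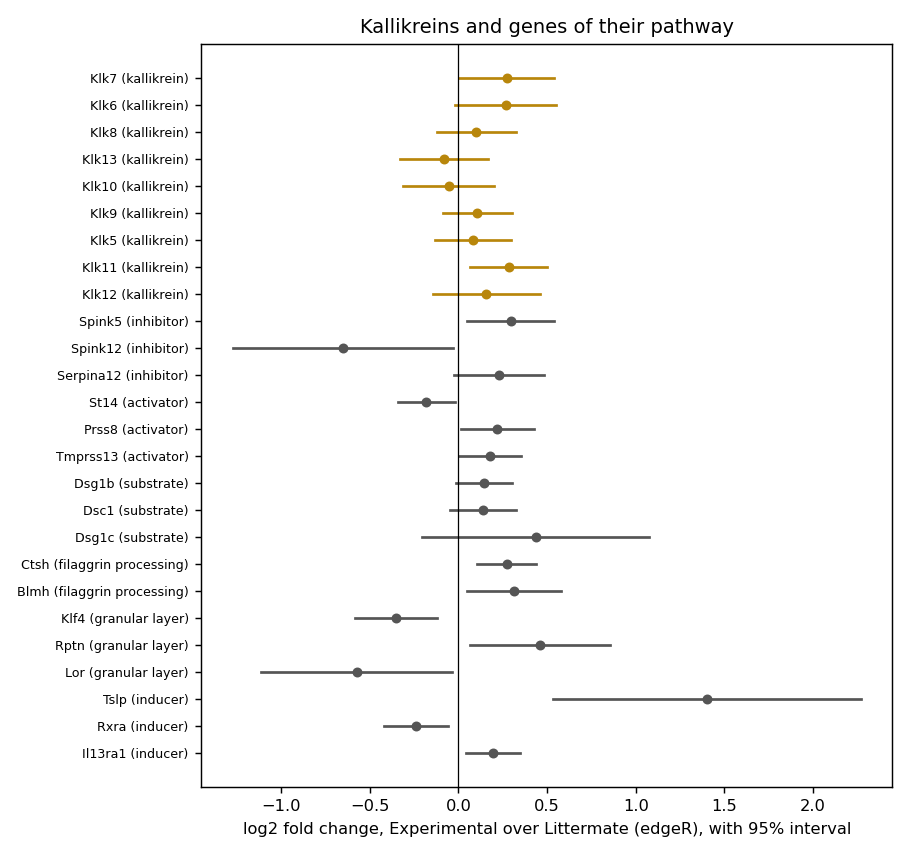
Log2 fold change of Experimental over Littermate (edgeR, points) with 95% intervals for the 9 tested kallikreins and for the named genes of their pathway. The kallikreins lie between -0.08 and 0.28, and Tslp at 1.401 lies farthest to the right.

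The wider granular layer had no common sign. Of 21 tested genes of the granular layer and cornified envelope none was called, and the median was -0.001. At an unadjusted p under 0.05, 1 was higher and 2 lower, where 3.65% of all tested genes were higher and 8.1% lower (edgeR). Rptn (repetin) had 0.46, Lor (loricrin) -0.57 and Klf4, a transcription factor of barrier formation, -0.35 (edgeR, adjusted p = 0.343, 0.392 and 0.229). The summed level of this list was 23440 to 36040 normalized CPM in Experimental libraries and 25950 to 33780 in Littermates. Of 13 marker lists of skin and ear cell types 10 had a negative median log2 fold change, among them skeletal muscle (8 genes, -0.31), fibroblasts (6 genes, -0.08) and macrophages (6 genes, -0.17), and the hair follicle list had 0.53 (6 tested genes). Summed skeletal muscle markers ran from 3329 to 4481 normalized CPM in Experimental and from 3034 to 6543 in Littermate libraries. None of these markers was called, and their part in the kallikrein values was not tested.

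Of 11 tested genes that induce kallikreins or report vitamin D and type 2 signalling none was called, with a median of 0.08. Tslp, the epithelial cytokine that MC903 induces, had 118.6, 163.8 and 238.5 normalized CPM (lowest, median and highest) in Experimental libraries and 77.2, 110.9, 37.5 and 31.95 in Littermates. Its groups did not overlap, as was so for 2.12% of all tested genes. Its log2 fold change was 1.401 with an SE of 0.38 (edgeR, adjusted p = 0.229). Rxra, the partner of the vitamin D receptor, had -0.24, and Il13ra1, a receptor chain for IL-4 and IL-13, had 0.20 (edgeR, adjusted p = 0.287 and 0.3).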

How the data were processed

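Whole ear skin RNA of 6 Experimental and 4 Littermate mice was depleted of ribosomal RNA, reverse transcribed from random hexamers and read as single reads of 50 bases, per the labels' protocols; no strand marking is described. The submitters' processing notes name STAR 2.0.4b, Subread, featureCounts 1.4.5 and the mm10 build; the sources used here give neither the annotation release nor the handling of reads with several matches. Each file holds raw read counts from the authors, 1 per gene. The deposited CPM is the count over the library's total, scaled to 1e6, and the deposited RPKM is that CPM per kilobase; neither entered a test. Symbols matched 97.3% of identifiers.

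Counts of all 10 libraries were fitted with edgeR 4.0.16 (TMM factors from 0.984 to 1.02, filterByExpr, robust quasi-likelihood, group as the only term, two-sided), with Benjamini-Hochberg adjustment over 16830 genes at 0.05. Normalized CPM and RPKM use the TMM factors. Correlations used log2 CPM with a prior count of 2, and ratios a pseudocount of 0.5. At these depths 3 counts were worth 0.0715 to 0.260 CPM, an allowance for counting error only. All kallikreins were described; from each pathway list the genes called, filled to 3 by the lowest p, were named, and marker lists were given by counts, medians and sums. The kallikreins and the lists were chosen with earlier results of these data known. Alternatives were RLE and upper-quartile factors, other filters, DESeq2 1.42.0, limma 3.58.1 voom with and without quality weights, a Y-linked covariate, a replicate block and libraries left out. Steps were tested on simulated data. No 2 libraries agreed within counting noise (lowest chi-square per degree of freedom within a group, 7.99).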

Additional observations from a re-analysis of the deposited data

Results flagged for a closer look

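Among 62 sets of values of 1 group that were checked for a library far from its fellows, 4 held one, where chance gives about 1 in 20. Klk11 was lowest in Experimental 6, at 67.5 normalized CPM, while the other 5 Experimental libraries had 91.1 to 101.9. Dsc1 was also lowest in Experimental 6, at 1302 normalized CPM, with 1534 to 1631 in the others. The log2 ratio of Klk7 to Spink5 was lowest in Experimental 3, at -0.19 (-0.1894), with -0.0117 to 0.0815 in the others. Spink12 was highest in Littermate 4, at 24.2 normalized CPM, with 11.4 to 11.5 in the other 3 Littermates.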

How the results depend on the processing

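Over all genes 3 were called, and 78 with no filter on low counts, 233 with DESeq2, 60 with voom quality weights, 563 without Littermate 2 and Experimental 6, and 3 to 343 with each library left out (343 without Littermate 2, 28 without Experimental 6, 8 without Littermate 3). The cause was not tested. Among the kallikreins 0 were called with all libraries and 0 with each library left out, and 1, Klk11, without Littermate 2 and Experimental 6; in each of the other alternatives none was called. Genes of the pathway lists called numbered 0 with all libraries, 2 with DESeq2 (Ctsh and Tslp), 1 with voom quality weights (Tslp), 5 without Littermate 2 and Experimental 6 (Ctsh, Blmh, Klf4, Tslp and the vitamin D receptor gene Vdr, named after its values were seen), and 0 to 2 with each library left out (2, Blmh and Klf4, without Littermate 2). Every tested kallikrein except Klk10 kept its sign in all 22 alternatives. With the Y-linked covariate, positive log2 fold changes were smaller for Klk5, Klk7 (0.185), Klk8, Klk11 and Klk12 (0.052). They were larger for Klk6 (0.28) and Klk9 (0.142), and that of Tslp was 1.094. In that fit 980 genes had an unadjusted p under 0.05 (edgeR), beside 1978 in the main fit. With each library left out, the median r over pairs was between 0.25 and 0.471. The order of RPKM was the same without TMM factors. Same-numbered libraries of the 2 groups did not deviate together (r = 0.0326, -0.0196, 0.091 and -0.0209), so the numbers were not taken as pairs; with the replicate block on 8 libraries 55 genes were called, with the group alone on these libraries 10, and no kallikrein in either. Klk14 can be tested only without the filter, with a fitted log2 difference of 0.29 (edgeR, adjusted p = 0.902).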

Other observations

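Among the pathway lists, the proteases of filaggrin processing followed the kallikreins from library to library most closely by their median. Over 10 libraries with group means subtracted, the mean r of these 8 genes to the 9 tested kallikreins had a median of 0.31, led by Ctsh at 0.48, beside a median of 0.00439 over all 16830 tested genes. The median was 0.09 for the 9 tested inhibitors, where Spink5 was highest at 0.55 and Spink7 lowest at -0.31. It was -0.05 for the 21 granular layer genes, where Rptn was highest at 0.48 and Klf4 lowest at -0.28, and -0.00 for the 6 basal keratinocyte markers. Skeletal muscle markers had a median of 0.14 (8 genes). These are descriptions over the same 10 libraries and carry no test.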
